A study of Mus musculus with 12 samples.

Results

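The 9 mast cell genes described here were taken by exact symbol from the soleus-labelled libraries, and all 9 were found among the 21936 genes listed. They are the granule proteases Cma1, Mcpt4, Tpsb2, Tpsab1 and Cpa3, the surface receptors Kit, Fcer1a and Ms4a2, and Hdc, which makes histamine. The study sequenced polyadenylated RNA of muscle from C57BL/6N mice aged 3 months, either PTRF knockout (KO), labelled as having muscular dystrophy, or wild type (WT), labelled as normal. PTRF is the caveolar coat protein cavin 1, encoded by Cavin1. The labels do not say whether the deletion affects the whole animal or only muscle, whether each sample is a separate animal, or the sex of the mice. Of the 12 labelled samples, the quadriceps-labelled ones held the same values as the soleus-labelled ones of the same genotype and number, with a largest difference of 0. They were not counted again, which left 6 libraries, 3 KO and 3 WT. The labels do not settle which of the muscles these libraries came from, and their muscle transcripts were not tested for it.

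Mast cells are resident cells of connective tissue that mature locally and depend on the receptor tyrosine kinase Kit. In skeletal muscle they lie between the fibres, often beside small vessels. Their granules hold chymases, tryptases and carboxypeptidase A3 bound to a heparin proteoglycan, together with histamine, and are released when IgE bound to its high-affinity receptor is crosslinked. In bulk RNA, more cells of a type and more RNA per cell cannot be told apart.

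The genes lie in a few clusters. Cma1 (ENSMUSG00000022225, GRCm38 chromosome 14 from 55941451 to 55944675, minus strand) and Mcpt4 (ENSMUSG00000061068, chromosome 14 from 56059629 to 56062313, minus strand) belong to the chymase locus and are 115 kb apart. Tpsb2 (ENSMUSG00000033825, chromosome 17 from 25366305 to 25369098, plus strand) and Tpsab1 (ENSMUSG00000024173, chromosome 17 from 25343245 to 25345562, minus strand) are neighbours in the tryptase locus, 20.7 kb apart. Cpa3 (ENSMUSG00000001865) lies on chromosome 3, Kit (ENSMUSG00000005672) on chromosome 5, Fcer1a (ENSMUSG00000005339) on chromosome 1, Ms4a2 (ENSMUSG00000024680) on chromosome 19 and Hdc (ENSMUSG00000027360) on chromosome 2. All 9 are annotated as protein coding.

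RefSeq promoter windows in GRCm38.p6, from 250 bases before to 50 bases after the gene start, were at hand for 7 of the 9 genes, all but Tpsb2 and Tpsab1. The windows of 3 protease genes whose transcripts were higher in KO are shown because each holds a GATAA motif, the core of the sites bound by GATA factors such as GATA2, which mast cells need. Capitals mark GATAA or its reverse complement TTATC, and each sequence is written on the strand of its gene. The windows are chr14:55944626-55944925 for Cma1, chr14:56062261-56062560 for Mcpt4 and chr3:20242132-20242431 for Cpa3, all on the minus strand.
Cma1: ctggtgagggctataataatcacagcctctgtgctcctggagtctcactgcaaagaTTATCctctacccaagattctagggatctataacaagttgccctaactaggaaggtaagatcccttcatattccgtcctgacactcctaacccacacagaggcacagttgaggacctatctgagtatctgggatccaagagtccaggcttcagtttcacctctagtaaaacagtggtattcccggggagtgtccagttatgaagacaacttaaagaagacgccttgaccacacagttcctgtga
Mcpt4: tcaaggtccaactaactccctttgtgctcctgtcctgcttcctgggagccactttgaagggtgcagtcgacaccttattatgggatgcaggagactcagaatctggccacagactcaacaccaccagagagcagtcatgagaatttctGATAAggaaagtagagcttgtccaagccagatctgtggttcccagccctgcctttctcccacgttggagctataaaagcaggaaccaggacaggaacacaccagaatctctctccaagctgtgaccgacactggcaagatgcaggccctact
Cpa3: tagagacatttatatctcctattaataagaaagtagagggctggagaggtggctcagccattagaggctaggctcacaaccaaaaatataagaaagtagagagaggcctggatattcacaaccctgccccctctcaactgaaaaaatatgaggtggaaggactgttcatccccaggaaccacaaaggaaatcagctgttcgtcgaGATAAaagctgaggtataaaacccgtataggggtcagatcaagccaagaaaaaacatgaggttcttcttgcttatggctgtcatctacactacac
The motif begins 194 bases before the start of Cma1, 102 before that of Mcpt4 and 45 before that of Cpa3. On either strand GATAA was in the windows of 5 of the 7 genes, Cma1, Mcpt4, Cpa3, Fcer1a and Ms4a2, and in 25.4% of all 32851 windows of 300 bases. Ms4a2 held it 3 times, and the windows of Kit and Hdc did not hold these letters. Only GATAA and its reverse complement were sought, so windows without them may hold other forms of a GATA site. CACATG or its reverse complement CATGTG, an E-box form that the mast cell factor MITF can bind, was in the window of Fcer1a alone among the 7 and in 14.2% of all windows. These matches describe the sequence and do not show binding.

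The unit was taken as TPM, a length-corrected abundance that sets the transcripts of a gene relative to all transcripts of its library. All 9 genes are low, at no more than 5.37 TPM in any library, and the read depth is unknown, so no counting error can be attached to them. TPM totals of the libraries ran from 843194 to 872482. The targeted transcript Cavin1 stood at 0.0254 to 0.284 TPM in KO libraries and 40.0 to 45.2 TPM in WT libraries. A gene was tested where 3 or more libraries reached 1 TPM. Of the 11056 such genes 39.2% passed (limma on log2(TPM + 1), adjusted p under 0.05), 36.3% as higher and 2.92% as lower in KO, and the median log2 fold change was 0.33. After trimmed-mean rescaling of the libraries 27.5% passed, 16.2% as higher and 11.3% as lower, and the median was 0.03. The changes of the mast cell genes are to be read against these shares and medians. The skeletal muscle markers summed to 42867 to 51695 TPM in KO libraries and 38998 to 43041 TPM in WT libraries.

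The granule proteases and Hdc were higher in PTRF KO muscle, while Fcer1a and Ms4a2, the IgE receptor chains found mainly on mast cells and basophils, were at no more than 0.444 TPM in any library. For 7 of the 9 genes every KO library lay above every WT library, a pattern seen in 38.1% of the 18254 genes above 0 in any library and in 48.7% of the tested genes. The exceptions were Fcer1a and Ms4a2. Enough libraries reached 1 TPM to test 5 genes, Cma1, Mcpt4, Tpsb2, Cpa3 and Hdc, and these 5 rose. Cpa3 and Hdc were under 1 TPM in every WT library, so they could be tested only because they were higher in KO, and the count of 5 is no support by itself. Cma1 reached 1 TPM in only 1 WT library, and Mcpt4 and Tpsb2 in 2, so their tests depended on their KO values as well. For each single gene whose groups do not overlap, an exact two-sided permutation test gives p = 0.1, the smallest that 3 against 3 allows.

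**Figure D1:**
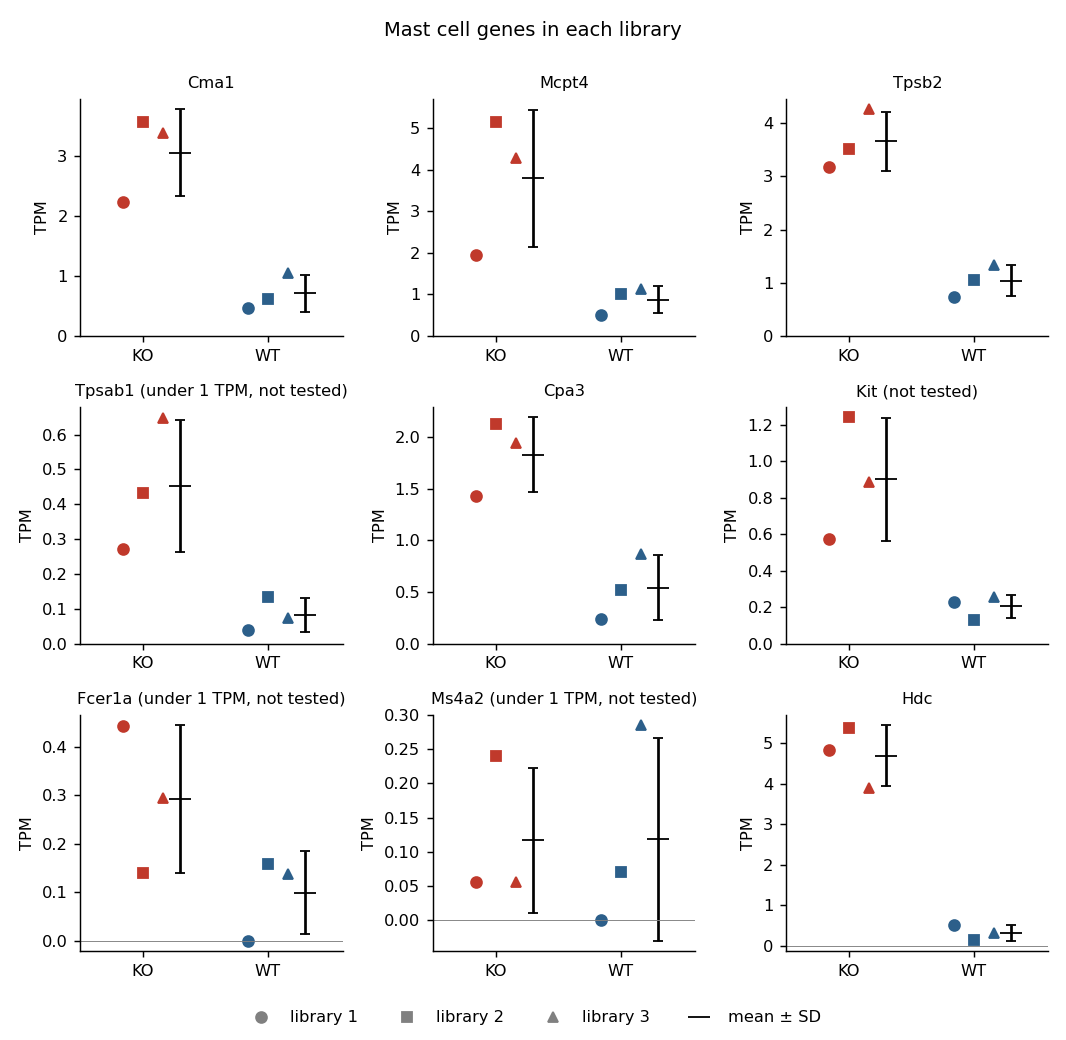
TPM of each of the 9 mast cell genes in the 3 KO libraries (red) and 3 WT libraries (blue), with marker shapes for the library number and a black bar for the mean ± SD (n = 3). Each panel has its own axis in TPM. The KO libraries lie above the WT libraries in 7 panels and overlap with them for Fcer1a and Ms4a2.

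Cma1 encodes the alpha-chymase of connective tissue mast cells. It stood at 2.22, 3.55 and 3.37 TPM in KO libraries 1, 2 and 3, and at 0.460, 0.620 and 1.05 TPM in WT libraries 1, 2 and 3. The lowest KO value, in library 1, was still above the highest WT value, in library 3. Means were 3.05 ± 0.721 TPM in KO and 0.710 ± 0.304 TPM in WT (SD, n = 3 each), a ratio of 4.30. The fold change of log2(TPM + 1) was 1.24 (SE 0.18, limma adjusted p = 0.000287), and adding 1 makes the change of so low a gene look smaller.

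Mcpt4 encodes the chymotrypsin-like chymase of mouse connective tissue mast cells. It stood at 1.95, 5.15 and 4.30 TPM in KO libraries and at 0.502, 1.00 and 1.12 TPM in WT libraries. KO library 1 was well below the other KO libraries and gave this gene the widest KO spread of the 9 genes, with means of 3.80 ± 1.66 TPM in KO and 0.876 ± 0.330 TPM in WT (SD, n = 3 each). The log2 fold change was 1.30 (SE 0.24, limma adjusted p = 0.00187). The call was lost after quantile normalization (limma adjusted p = 0.0527). The adjusted p ran from 3.49e-05 to 0.0527 over the alternatives.

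Tpsb2 encodes the main tryptase of mouse connective tissue mast cells and was the most abundant protease in WT. It stood at 3.18, 3.52 and 4.27 TPM in KO libraries and at 0.733, 1.06 and 1.33 TPM in WT libraries. All KO values were more than the highest WT value by a margin wider than the range of either group. Means were 3.66 ± 0.559 TPM in KO and 1.04 ± 0.299 TPM in WT (SD, n = 3 each), and the log2 fold change was 1.19 (SE 0.16, limma adjusted p = 0.000167).

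The other tryptase, Tpsab1, stood at 0.271, 0.434 and 0.649 TPM in KO libraries and at 0.0379, 0.134 and 0.0736 TPM in WT libraries. It was far below Tpsb2 in every library, and its groups did not overlap. C57BL/6 mice are known to carry a splice-site change that prevents Tpsab1 from making its protease, and its part in this level was not tested. Under 1 TPM throughout, it was not tested at the main filter. With a filter of 0.1 TPM, at which 31.1% of 14164 genes were higher, its log2 fold change was 0.42 (SE 0.10, limma adjusted p = 0.0151).

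Cpa3 encodes carboxypeptidase A3, an exopeptidase stored with the chymases. It stood at 1.42, 2.12 and 1.94 TPM in KO libraries and at 0.238, 0.519 and 0.865 TPM in WT libraries. The groups did not overlap, and KO library 1 was again the lowest of its group. Means were 1.83 ± 0.362 TPM in KO and 0.541 ± 0.314 TPM in WT (SD, n = 3 each), and the log2 fold change was 0.89 (SE 0.17, limma adjusted p = 0.00202). After quantile normalization the call was lost (limma adjusted p = 0.0768, in a range of 0.000359 to 0.0768 over the alternatives).

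Together the 5 proteases summed to 9.05, 14.8 and 14.5 TPM in KO libraries and to 1.97, 3.34 and 4.44 TPM in WT libraries. Within that sum the shares differed little between genotypes. Cma1 took 23.9 ± 0.699% in KO and 21.8 ± 2.83% in WT, and Mcpt4 took 28.6 ± 6.71% in KO and 26.9 ± 2.69% in WT (SD, n = 3 each). Tpsb2 took 29.5 ± 5.67% in KO and 33.0 ± 3.76% in WT. Cpa3 took 14.5 ± 1.20% in KO and 15.7 ± 3.70% in WT, and Tpsab1 took 3.47 ± 0.867% in KO and 2.53 ± 1.29% in WT. For each protease the difference of the mean shares was smaller than the SD of at least 1 genotype.

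In KO the order by mean TPM was Hdc, Mcpt4, Tpsb2, Cma1, Cpa3, Kit, Tpsab1, Fcer1a and Ms4a2. The values of each neighbouring pair in that order overlapped between libraries, except Cma1 with Cpa3 and Cpa3 with Kit. In WT the order began with Tpsb2, Mcpt4, Cma1 and Cpa3, followed by Hdc, Kit, Ms4a2, Fcer1a and Tpsab1, and each neighbouring pair overlapped. Hdc was above Mcpt4, Tpsb2, Cma1 and Cpa3 by mean in KO and below them in WT.

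Paralogues can divide reads. Of the distinct stretches of 31 bases in the GENCODE transcripts of Tpsb2, 0.557% were also found in Tpsab1, and 0.419% of those of Tpsab1 were found in Tpsb2. For Mcpt4, 12.2% of such stretches occurred in another gene, most of them in Cma2, which was listed at 0.159 TPM in KO library 3 and not above 0 elsewhere. For Cma1, 10.6% occurred in another gene, Gm48934. No stretch of Cpa3, Kit or Fcer1a occurred in another gene, and 4.03% of those of Ms4a2 did. How the authors' counting treated shared reads is not given in the sources used here.

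Kit, the receptor for stem cell factor that mast cells need throughout life, stood at 0.574, 1.24 and 0.886 TPM in KO libraries and at 0.226, 0.132 and 0.256 TPM in WT libraries. The lowest KO value was above the highest WT value, but only KO library 2 passed 1 TPM, so the gene was not tested at the main filter. With the 0.1 TPM filter its log2 fold change was 0.64 (SE 0.13, limma adjusted p = 0.00552). Kit is also made by melanocytes. Their list summed to 0.741 to 0.833 TPM in KO libraries and 0.783 to 2.22 TPM in WT libraries, and Dct, a melanin enzyme with the highest mean over the 6 libraries, stood at 0.487, 0.278 and 0.196 TPM in KO libraries and 1.35, 0.414 and 1.76 TPM in WT libraries.

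Fcer1a encodes the IgE-binding alpha chain of the high-affinity receptor. It stood at 0.444, 0.140 and 0.294 TPM in KO libraries, was not listed in WT library 1, which was taken as 0, and stood at 0.158 and 0.137 TPM in WT libraries 2 and 3. KO library 2 lay inside the WT range, and with the 0.1 TPM filter the gene did not pass (log2 fold change 0.23, SE 0.10, limma adjusted p = 0.111). Ms4a2 encodes the signal-amplifying beta chain. It stood at 0.0559, 0.240 and 0.0555 TPM in KO libraries, was not listed in WT library 1, and stood at 0.0702 and 0.285 TPM in WT libraries 2 and 3. With no filter its log2 fold change was 0.00 (SE 0.11, limma adjusted p = 0.99), and values this low cannot show whether the genotypes differ.

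The third chain, the signalling gamma chain Fcer1g, is shared with the Fc receptors of macrophages and other myeloid cells. It was far more abundant than the alpha and beta chains and rose, at 18.0, 15.9 and 15.6 TPM in KO libraries against 2.80, 3.21 and 4.33 TPM in WT libraries (log2 fold change 1.99, SE 0.16, limma adjusted p = 6.92e-06). The chains of this receptor thus had unequal levels in these libraries.

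Hdc encodes histidine decarboxylase, which makes histamine in mast cells and also in basophils, neutrophils and other myeloid cells. It stood at 4.82, 5.37 and 3.88 TPM in KO libraries and at 0.525, 0.140 and 0.313 TPM in WT libraries. The lowest KO value was several times the highest WT value, and the means were 4.69 ± 0.750 TPM in KO and 0.326 ± 0.192 TPM in WT (SD, n = 3 each), a ratio of 14.4. Its log2 fold change, 2.10 with an SE of 0.16 (limma adjusted p = 4.64e-06), ranked 86 among the 11056 tested genes, where Mcpt4, the next member, ranked 435. Hdc was tested only through its KO values, so this rank is a description. The log2 fold change of Hdc was 0.86 with a pseudocount of 5 and 3.59 with a pseudocount of 0.1.

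**Figure D2:**
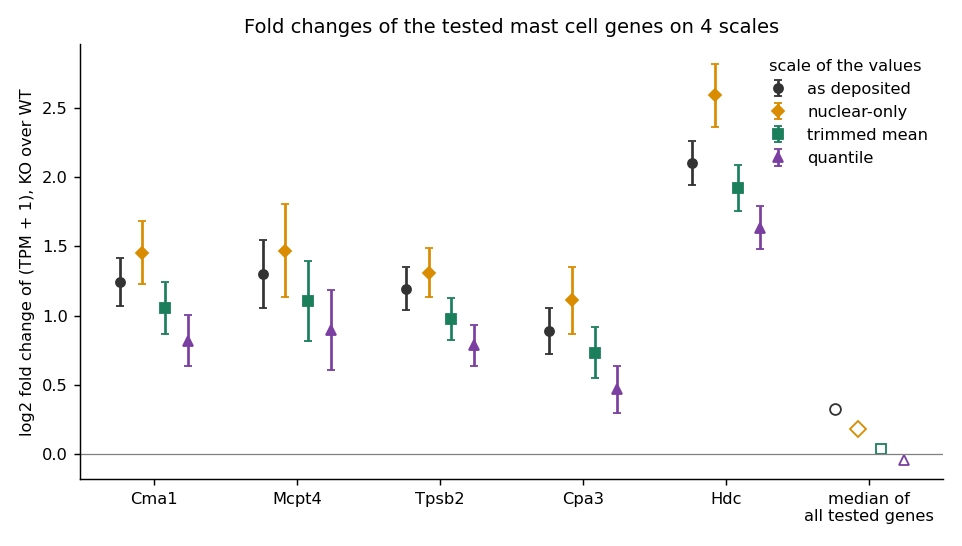
Log2 fold change of TPM + 1, KO over WT, with its standard error for the 5 tested mast cell genes on the deposited scale, the nuclear-only scale, after trimmed-mean rescaling and after quantile normalization. Open symbols give the median of all tested genes on each scale. Every gene stays above 0 on each scale, with Hdc highest and Cpa3 lowest. Every TPM is higher on the nuclear-only scale, so the added 1 shrinks the changes less there.

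The size of these changes moved with the scale of the values. After trimmed-mean rescaling the log2 fold changes were 1.05 for Cma1, 1.10 for Mcpt4, 0.98 for Tpsb2, 0.73 for Cpa3 and 1.92 for Hdc. All 5 passed there (limma adjusted p from 0.000185 for Hdc to 0.0234 for Mcpt4). Rescaling to nuclear genes alone, with transcripts of the mitochondrial genome left out, gave 1.45 for Cma1, 1.47 for Mcpt4, 1.31 for Tpsb2, 1.11 for Cpa3 and 2.59 for Hdc, and Kit became testable and passed on this scale, where 23.5% of genes were higher (log2 fold change 0.92, SE 0.22, limma adjusted p = 0.0157). The nuclear-only scale raises every TPM, so adding 1 shrinks the change of a low gene less. Larger log2 fold changes on it do not by themselves mean a larger ratio of KO to WT. The median of all tested genes was 0.18 there, against 0.33 on the deposited scale. Quantile normalization, under which 12.4% of genes were higher, left 0.82 for Cma1, 0.90 for Mcpt4, 0.79 for Tpsb2, 0.47 for Cpa3 and 1.64 for Hdc.

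Ratios of 2 genes within a library do not depend on its scale, and 13 were compared by exact two-sided permutation tests on their log2 values. None could pass, since p cannot go below 0.1, and the smallest p adjusted over the 13 was 0.433. Relative to Ptprc, the leukocyte antigen CD45, Cma1 stood at 1.99 ± 0.608 in KO and 1.89 ± 1.18 in WT, and Mcpt4 at 2.43 ± 1.02 in KO and 2.26 ± 1.13 in WT (SD, n = 3 each). Tpsb2 stood at 2.46 ± 0.883 in KO and 2.70 ± 1.23 in WT, Cpa3 at 1.19 ± 0.309 in KO and 1.44 ± 1.09 in WT, and Kit at 0.571 ± 0.149 in KO and 0.543 ± 0.265 in WT. These differences were smaller than the spread within a genotype. Ptprc itself was low in WT libraries, at 0.397, 0.494 and 0.323 TPM. The KO mean over the WT mean was 3.91 for Ptprc, 5.16 for Cd53, 5.70 for Laptm5 and 5.80 for Coro1a, other pan-leukocyte markers. The ratios therefore depend on the marker chosen, and ratios to the other markers were not compared. Hdc had ratios to Ptprc of 3.47, 2.55 and 3.11 in KO libraries and 1.32, 0.284 and 0.969 in WT libraries, and no overlap (exact permutation p = 0.1, adjusted p = 0.433).

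**Figure D3:**
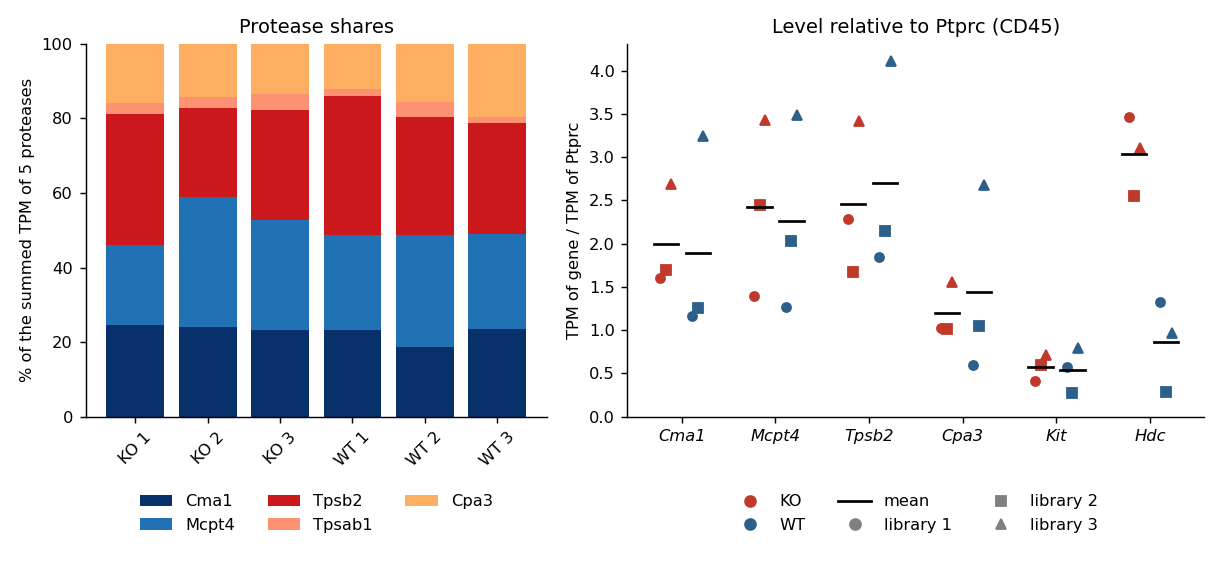
Left, the share of each granule protease in the summed TPM of the 5 proteases, in percent, for each KO and WT library. Right, the TPM of 6 mast cell genes divided by the TPM of Ptprc in each KO (red) and WT (blue) library, with black bars for the means; the groups overlap for all but Hdc.

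The ratio of Hdc to Tpsb2 was 1.52, 1.52 and 0.909 in KO libraries and 0.716, 0.132 and 0.235 in WT libraries. Mcpt4 over Cma1, the chymases of the same locus, was 1.20 ± 0.294 in KO and 1.26 ± 0.310 in WT, and Cma1 over Kit was 3.51 ± 0.568 in KO and 3.61 ± 1.40 in WT (SD, n = 3 each). Tpsb2 over C1qa, a complement gene of macrophages, was 0.118, 0.160 and 0.121 in KO libraries and 0.208, 0.285 and 0.352 in WT libraries (exact permutation p = 0.1, adjusted p = 0.433). Cma1 over C1qa was 0.0827, 0.161 and 0.0958 in KO libraries and 0.131, 0.166 and 0.278 in WT libraries (exact permutation p = 0.2, adjusted p = 0.65). The groups did not overlap for Tpsb2 and overlapped for Cma1.

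Markers of other blood cells moved as well, and their part in the changes of the mast cell genes was not tested. The 4 pan-leukocyte markers summed to 14.4 to 17.2 TPM in KO libraries and 2.77 to 3.09 TPM in WT libraries, and all 4 passed as higher (Ptprc only through its KO values), Laptm5, Cd53 and Coro1a with the smallest adjusted p. Laptm5, Cd53 and Coro1a each reached 1 TPM in only 1 WT library, so their tests depended on their KO values too. All 12 macrophage markers were higher, Adgre1 and Cd14 only through their KO values, with sums of 200.3 to 253 TPM in KO libraries and 40.9 to 48.8 TPM in WT libraries. Ctss, a lysosomal protease, Tyrobp, a signalling adaptor, and C1qa led them. The counts of both lists stand beside 36.3% of all tested genes that were higher.

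Neutrophils also make Hdc. The 11 neutrophil markers summed to 41.5, 4.36 and 8.89 TPM in KO libraries and 0.787, 2.95 and 0.874 TPM in WT libraries. S100a8 and S100a9, subunits of calprotectin, were the only 2 tested, and the pair rose, with S100a8 at 13.2, 1.33 and 2.94 TPM in KO libraries against 0, 0.868 and 0 TPM in WT libraries. Both calls were lost with no filter, where 19.8% of genes were higher (limma adjusted p = 0.0698 for S100a8 and 0.0764 for S100a9) and after quantile normalization. S100a8 was tested only through its KO values, and S100a9 reached 1 TPM in only 1 WT library. The part of neutrophil RNA in the level of Hdc was not tested. Elane was at 0 in all 6 libraries.

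Basophils share Hdc, Cpa3 and the IgE receptor with mast cells. Their defining protease Mcpt8 was at 0 in all 6 libraries and Prss34 was at 0.0440 to 0.0892 TPM in KO libraries and at most 0.0412 TPM in WT libraries. Il3ra and Gata2, on the basophil list but not specific to basophils, passed as higher, Il3ra only through its KO values. Gata2 did not pass in 8 of 16 alternatives, among them trimmed-mean rescaling (limma adjusted p = 0.103), quantile normalization (0.298), no filter (0.0581) and the fits without KO library 1 (0.0509), KO library 3 (0.0676), WT library 1 (0.0622) or WT library 2 (0.0577). Of 7 eosinophil markers none was tested, and Epx, Ccr3, Ear1 and Ear6 were at 0 in all 6 libraries. Prg2, the major basic protein of eosinophil granules, stood at 0.999, 0.860 and 0.843 TPM in KO libraries and was not above 0 in any WT library. The 10 lymphocyte markers summed to 0.835 to 1.77 TPM in KO libraries and 0.603 to 1.01 TPM in WT libraries, and Cd3d, with the highest mean over the 6 libraries, stood at 0.275 to 0.337 TPM in KO libraries and 0.232 to 0.339 TPM in WT libraries. The 7 fibroblast markers all passed as higher, against 36.3% of all tested genes, Ly6a, Col3a1 and Dcn with the smallest adjusted p. Among the 11 skeletal muscle markers Des and Myh4 passed as higher, and Myh4 did not with no filter (limma adjusted p = 0.0671). Myh4 stood at 238, 580 and 346 TPM in KO libraries and 6.43, 194 and 4.21 TPM in WT libraries (log2 fold change 4.22, SE 1.01). WT library 2 was also highest of its group for Myh1, at 546, 1369 and 548 TPM in WT libraries, and lowest for Myh7, at 2175, 1702 and 2703 TPM.

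**Figure D4:**
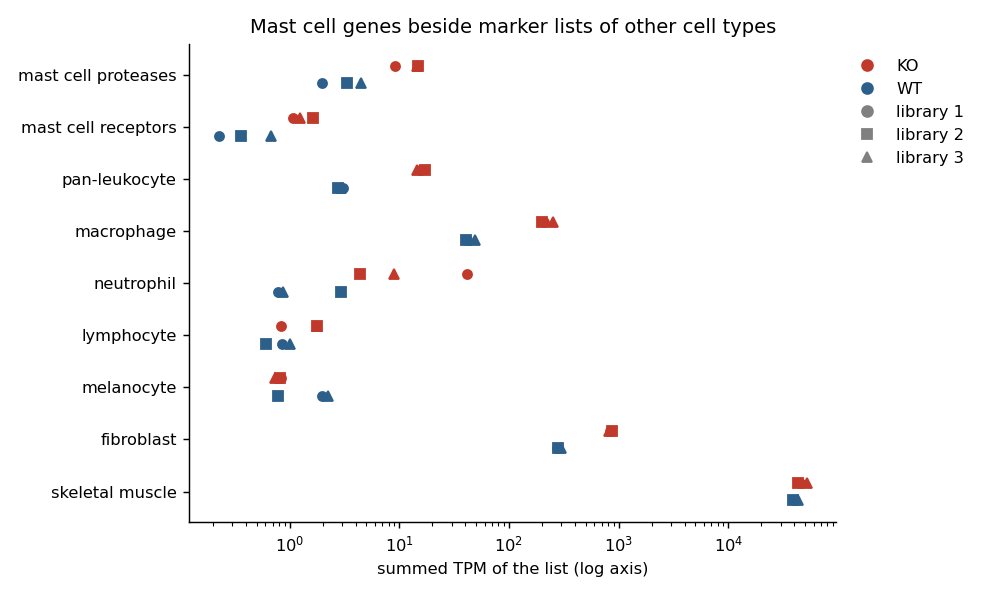
Summed TPM, on a log axis, of the mast cell proteases and receptors and of marker lists of other cell types, with KO libraries (red) above WT libraries (blue) in each row. The 5 mast cell proteases sum to 9.05 to 14.8 TPM in KO libraries and 1.97 to 4.44 TPM in WT libraries, below the macrophage markers in every library.

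Wider mast cell biology was covered by 6 lists of 72 genes. Of the 35 tested, 26 were higher and 2 lower in KO, a share of 74.3% against 36.3% of all tested genes, with a median log2 fold change of 0.63 against 0.33. Of the 26, Tal1, Enpp3, Syk, Ltc4s, Il3ra and Tslp were under 1 TPM in every WT library, so these 6 could be tested only because they were higher in KO, and the counts of the lists that hold them are a description. Inpp5d, also among the 26, reached 1 TPM in only 1 WT library. Trimmed-mean rescaling left 7 of the 8 tested genes of IgE receptor signalling above the filter, and the other lists kept their numbers of tested genes. On that scale 14 were higher and 3 lower, where 16.2% of all tested genes were higher and 11.3% lower. Most genes of the 6 lists are also used by other cells of muscle.

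The 9 other proteases of mast cells and basophils were all too low to test. Mcpt1 and Mcpt2, the chymases of mucosal mast cells, were at 0 in all 6 libraries, as was Mcpt8. Gzmb, a granzyme that mouse mast cells and cytotoxic lymphocytes make, had the highest mean over the 6 libraries, at 0.168, 0.160 and 0.166 TPM in KO libraries and 0.0343, 0.0701 and 0.0384 TPM in WT libraries. Mcpt4, Cma1 and Tpsb2, above 1 TPM in every KO library, are those known from connective tissue mast cells.

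Of 17 other genes of the mast cell signature, 6 were tested, with 4 higher and 1 lower, against 36.3% and 2.92% of all tested genes. Enpp3 and Tal1 among the 4 were tested only through their KO values. The tested gene that did not pass was Mitf, singled out after its values were seen. Its means were 5.59 ± 0.437 TPM in KO and 5.22 ± 0.230 TPM in WT (SD, n = 3 each, limma adjusted p = 0.638). Cd63, a tetraspanin of granule and lysosome membranes in many cells, rose to 253.9, 138.0 and 175.0 TPM in KO libraries, against 85.4, 81.3 and 107.7 TPM in WT libraries (log2 fold change 1.00, SE 0.21, limma adjusted p = 0.00381). Enpp3, a surface ectoenzyme of mast cells and basophils, rose by 0.56 on the log2 scale (limma adjusted p = 0.00985) but not after trimmed-mean rescaling (limma adjusted p = 0.0805) or quantile normalization (limma adjusted p = 0.408). Maob, a mitochondrial amine oxidase, fell by 0.69 on the log2 scale (limma adjusted p = 0.0117), at 4.23, 6.45 and 7.08 TPM in KO libraries against 8.67, 10.8 and 10.6 TPM in WT libraries. Without KO library 1 and WT library 2 together Maob did not pass (limma adjusted p = 0.102). After trimmed-mean rescaling 1 of the 6 tested genes of this list was higher and 1 lower, where 16.2% of all tested genes were higher and 11.3% lower.

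For the granule proteoglycan and the enzymes of heparin synthesis, 6 of 8 tested genes were higher and none lower, against 36.3% higher among all tested genes. Srgn, the serglycin core protein that carries heparin in mast cells and other chains in most blood cells, stood at 42.1, 37.3 and 41.7 TPM in KO libraries and 23.8, 25.4 and 27.7 TPM in WT libraries (log2 fold change 0.63, SE 0.14, limma adjusted p = 0.00466). Ext1, a heparan sulfate polymerase subunit, rose by 0.74 and Hs2st1, a sulfotransferase, by 0.52 on the log2 scale. The call for Ext1 was lost after quantile normalization (limma adjusted p = 0.0953), and that for Hs2st1 after quantile normalization (limma adjusted p = 0.486) and trimmed-mean rescaling (limma adjusted p = 0.0792). Both were also lost without KO library 1 and WT library 2 together (limma adjusted p = 0.0508 for Ext1 and 0.0689 for Hs2st1). After trimmed-mean rescaling 2 of the 8 tested genes of this list were higher, against 16.2% of all tested genes.

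All 8 tested genes of 16 in IgE receptor signalling were higher, and 3 of 7 after trimmed-mean rescaling. Of all tested genes 36.3% were higher, and 16.2% after that rescaling. The kinase Syk was among the 8 only through its KO values. Besides Fcer1g, the kinase Lyn, which starts the signal, rose by 1.04 on the log2 scale (limma adjusted p = 0.000245), and the inhibitory phosphatase Inpp5d by 0.79 (limma adjusted p = 0.0022). Inpp5d, which reached 1 TPM in only 1 WT library, did not pass after quantile normalization (limma adjusted p = 0.0659). These genes act in macrophages too.

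In the synthesis of prostaglandin D2 and leukotrienes, 3 of 4 tested genes were higher, on the deposited scale and after trimmed-mean rescaling. The shares of all tested genes were 36.3% and 16.2% on these scales, and Ltc4s was tested only through its KO values. Ltc4s, the leukotriene C4 synthase, stood at 2.91, 2.38 and 4.34 TPM in KO libraries and 0.699, 0.491 and 0.987 TPM in WT libraries (log2 fold change 1.27, SE 0.18, limma adjusted p = 0.000315). Alox5ap, which presents arachidonate to the lipoxygenase, rose by 0.95 and the cyclooxygenase Ptgs1 by 0.82 on the log2 scale. Ptgs1 did not pass after quantile normalization (limma adjusted p = 0.0718).

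Among 13 growth factors of mast cells and their receptors, 9 were tested, with 5 higher and 1 lower, and with 5 higher and 2 lower after trimmed-mean rescaling. Of all tested genes 36.3% were higher and 2.92% lower, and 16.2% and 11.3% after that rescaling. Tslp and Il3ra, among the 5, were tested only through their KO values. Tslp, an epithelial and stromal cytokine that acts on mast cells, stood at 2.77, 3.42 and 2.61 TPM in KO libraries and 0.687, 0.437 and 0.359 TPM in WT libraries (log2 fold change 1.40, SE 0.14, limma adjusted p = 3.38e-05). Tgfb1, a growth factor that affects mast cells and many others, rose by 1.51 (limma adjusted p = 8.28e-05) and Il3ra, the alpha chain of the interleukin 3 receptor, by 1.13 on the log2 scale (limma adjusted p = 0.000109). Il3 and Il9 were at 0 in all 6 libraries. Kitl, the ligand of Kit, fell outside the rule for named genes and was singled out after its values were seen. It stood at 9.18, 8.09 and 7.46 TPM in KO libraries and 8.34, 8.88 and 9.83 TPM in WT libraries, with overlapping groups (log2 fold change -0.12, SE 0.14, limma adjusted p = 0.513). Its call depended on the scale: it passed as lower after trimmed-mean rescaling (log2 fold change -0.43, limma adjusted p = 0.0137) and after quantile normalization (log2 fold change -0.50, limma adjusted p = 0.00888), and did not pass on the nuclear-only scale (limma adjusted p = 0.065). Cxcl12, the member that passed as lower and also singled out after its values were seen, stood at 17.7, 23.8 and 20.3 TPM in KO libraries and 43.8, 31.7 and 42.2 TPM in WT libraries.

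The genes whose profile over the 6 libraries was nearest to that of Hdc, the member with the highest mean, were sought among all tested genes other than the members. Likeness was the root mean square difference of log2(TPM + 1) after centring each gene on its mean. The 5 nearest were Zmynd15 (0.12), Col18a1 (0.13), Cd109 (0.13), Fgl2 (0.14) and Cd9 (0.15). The mast cell proteases were farther from Hdc than these, at 0.52 for Cma1, 0.54 for Tpsb2, 0.59 for Mcpt4 and 0.68 for Cpa3, and from 490 genes for Cma1 to 1187 for Cpa3 lay nearer. The measure includes the size of the change between genotypes, so the smaller log2 fold changes of the proteases by themselves place them farther from Hdc. Zmynd15 stood at 4.49, 5.70 and 3.89 TPM in KO libraries and 0.255, 0.137 and 0.148 TPM in WT libraries, so its levels resembled those of Hdc as well as its pattern.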

How the data were processed

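Poly(A) RNA libraries were made from TRIzol-isolated total RNA with a NEBNext Ultra kit, per the labels' protocols. The deposited values were taken as TPM from their form (fractional, with similar totals), and no header or label names the unit. The submitters' processing notes list STAR 2.5.3a, kallisto 0.43.0 and GRCm38 (mm10) but give no step. Only the 6 soleus-labelled files entered the tests, since the quadriceps-labelled ones repeat them. Genes missing from a file were set to 0. A gene entered the test if 3 or more libraries reached 1 TPM. The test was limma 3.58.1 (R 4.3.3) on log2(TPM + 1), with the variance trend on intensity, on 4 residual degrees of freedom. P-values were adjusted over all tested genes by Benjamini-Hochberg at 0.05. This was tested on simulated data. Changes were placed there only in genes above the WT level of every member, so the simulation does not cover genes as low as the members. P-values reflect only how far these samples differ among themselves, and that variation may be technical. Positions come from the GENCODE annotation of GRCm38, in which 99.5% of gene identifiers were found.

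The members and lists were chosen with earlier results of these data known. Named from each list were the 3 passing genes with the smallest adjusted p, or the highest gene where none passed. Alternatives were pseudocounts of 0.1 and 5, a 0.1 TPM filter, no filter, no trend, rescaling by a trimmed mean (at each end 30% of the ratios and 5% of the levels left out), quantile normalization, a nuclear-only scale, the replicate number as a block, and each library left out with the tested genes kept. Leaving out KO library 1 and WT library 2 together was chosen after seeing the data. Python 3.11.15 with matplotlib 3.10.9, numpy 2.4.6 and pandas 2.3.3 made the tables and plots.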

Additional observations from a re-analysis of the deposited data

How the results depend on the processing

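The 5 tested mast cell genes stayed higher in KO under all 16 alternatives, and 78 of their 80 alternative fits passed. The exceptions were Mcpt4 and Cpa3 after quantile normalization, which left 3 members passing, where the cause was not tested. Leaving out any single library kept 5, with the tested genes still those chosen on all 6 libraries. Cpa3 and Hdc were among these only through their KO values, so the counts of passing fits are no support by themselves. Over all genes, 2823 passed after quantile normalization and 2238 without KO library 1 and WT library 2 together, with 2783 (without WT library 2) to 4912 when single libraries were left out, against 4339. Genes higher in KO numbered 1781 after trimmed-mean rescaling, 1373 after quantile normalization, 2002 without that pair of libraries and 2521 (without WT library 2) to 4561 without single libraries, with 2676 without WT library 1, against 4016. Genes lower in KO numbered 1241 after trimmed-mean rescaling, 1450 after quantile normalization and 777 on the nuclear-only scale, against 323. In the 6 wider lists, 14 were higher after trimmed-mean rescaling, 9 after quantile normalization and 15 without the pair, against 26, and 1 was lower without the pair, against 2. Of all tested genes, 16.2% were higher after trimmed-mean rescaling and 12.4% after quantile normalization, against 36.3% on the deposited scale.

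Gata2 was the least stable named gene, with its call lost in 8 of 16 alternatives (log2 fold change 0.22 to 0.78). The replicate block gave 4373 passing genes and the same 5 members. Libraries with the same number were not paired by the labels, and their deviations correlated at 0.03, -0.01 and 0.04 for numbers 1, 2 and 3. Unknown depth limits every value under 1 TPM, and Tpsab1, Fcer1a and Ms4a2 were under it in all libraries.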
